A study of Mus musculus with 12 samples.

Results

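Apoa1, Apoa4, Apob, Apoc2, Apoc3 and Mttp, the apolipoproteins and the lipid transfer protein with which the small intestine builds its lipoproteins, were followed in mouse ileum. The genes were chosen by symbol: each probe set that the platform annotation assigns to exactly 1 symbol, where that symbol was among these 6, was taken. This gave 11 of the 22626 probe sets tested and 6 of 12393 genes. Apoa1 had 4 probe sets, Apoa4 and Mttp had a pair each, and Apob, Apoc2 and Apoc3 had 1 each. The probe set with the highest mean over the 12 arrays leads for its gene (Apoa1 1419233_x_at, Apoa4 1436504_x_at, Apob 1455593_at, Apoc2 1418069_at, Apoc3 1418278_at, Mttp 1419399_at). All values are log2 expression levels, so a difference of 1 is a doubling of signal.

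The 12 arrays formed 4 groups of 3: POR-null mice on quercetin, POR-null mice on control diet, wild-type mice on quercetin and wild-type mice on control diet. Mice of all groups were males of 6 to 8 weeks, with the strain given as C57BL/6. POR is the reductase that passes electrons to microsomal cytochrome P450 enzymes, and quercetin is a plant flavonol. All mice ate RM3, a powdered diet free of soya, for 14 days, and then the same diet without or with quercetin (6.2 g per kg of diet, or 7 mg per mouse) until tissue was taken after 24 h. The ileum was the distal part of the small intestine, rinsed in PBS, from which the epithelial layer was scraped, and the RNA on an array came from a pool of 3 mice. The tissues that lack the reductase are not named in the labels. No tested probe set carries Por as its only symbol, and probe sets with several symbols were not searched for it. The targeted gene was therefore not used to check the genotypes. Each comparison is between pools, and in scrapings fewer cells of a type and less RNA per cell cannot be told apart.

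Enterocytes package absorbed fat into chylomicrons. Apolipoprotein B is the structural protein of the particle, and microsomal triglyceride transfer protein, encoded by Mttp, loads lipid onto it in the endoplasmic reticulum. Apolipoprotein A-I is the main protein of high-density lipoprotein and A-IV is carried on chylomicrons. On circulating particles, C-II activates lipoprotein lipase and C-III inhibits it. In the gene table of assembly GRCm38.p6, Apoa1, Apoc3, Apoa4 and Apoa5 are neighbours on chromosome 9, and Apoc2 lies next to Apoc4 on chromosome 7.

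Promoter windows, 250 bases before to 50 after the annotated start, were matched in the RefSeq promoter table (GRCm38.p6) for 5 of the 6 genes; Apoc3 is named only. Shown here are 3 of the 4 genes whose levels moved together across arrays (Apoa4, Apoc2 and Mttp), and Apob, whose levels did not move with theirs. Capitals mark the motif matches. The windows lie at chr9:46240594-46240893 (plus strand), chr7:19677892-19678191 (minus strand), chr3:138143369-138143668 (minus strand) and chr12:7977427-7977726 (plus strand) for Apoa4, Apoc2, Mttp and Apob.
Apoa4: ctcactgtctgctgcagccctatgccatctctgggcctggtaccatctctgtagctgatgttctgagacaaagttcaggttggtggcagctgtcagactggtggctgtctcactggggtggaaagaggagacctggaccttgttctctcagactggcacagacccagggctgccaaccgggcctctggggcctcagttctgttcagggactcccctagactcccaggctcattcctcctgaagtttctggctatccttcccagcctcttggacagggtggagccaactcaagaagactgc
Apoc2: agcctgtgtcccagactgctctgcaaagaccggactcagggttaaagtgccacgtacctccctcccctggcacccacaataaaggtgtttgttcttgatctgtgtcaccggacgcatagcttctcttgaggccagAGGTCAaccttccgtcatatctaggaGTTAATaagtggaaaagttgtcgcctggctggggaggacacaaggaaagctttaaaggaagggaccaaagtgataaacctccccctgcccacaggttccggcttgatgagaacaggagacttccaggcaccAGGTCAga
Mttp: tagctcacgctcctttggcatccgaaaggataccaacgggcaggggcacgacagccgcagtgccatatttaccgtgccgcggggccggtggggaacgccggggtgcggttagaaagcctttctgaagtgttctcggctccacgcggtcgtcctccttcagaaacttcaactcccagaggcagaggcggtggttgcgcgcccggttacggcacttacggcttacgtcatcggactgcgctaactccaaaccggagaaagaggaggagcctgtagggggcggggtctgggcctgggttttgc
Apob: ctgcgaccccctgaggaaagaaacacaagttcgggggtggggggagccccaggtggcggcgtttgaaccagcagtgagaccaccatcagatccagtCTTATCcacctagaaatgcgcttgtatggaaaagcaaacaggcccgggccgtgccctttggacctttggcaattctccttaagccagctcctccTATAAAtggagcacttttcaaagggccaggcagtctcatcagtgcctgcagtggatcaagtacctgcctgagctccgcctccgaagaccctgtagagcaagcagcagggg

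Of all 32851 windows in the table, searched on both strands, 13.6% held TATAAA, the core of the TATA box, and 0.475% held CAAAGTCCA, a site of the nuclear receptor HNF4. The nuclear receptor core site AGGTCA was in 16.3%, the letters GTTAAT, found in sites of the factor HNF1, were in 7.10%, and GATAAG, a site of GATA factors, was in 7.44%. Matches of different motifs did not overlap in the windows of these genes. The Apob window held TATAAA at -60 to -55 from the start and GATAAG on the opposite strand at -154 to -149. The Apoc2 window held AGGTCA at -115 to -110 and at 43 to 48, and GTTAAT at -89 to -84. The Apoa1 window, not printed, held GATAAG on the opposite strand at 15 to 20. None of these letters was found in the Apoa4 or Mttp windows. The motifs were thus found in 1 of the 3 searched genes that moved together, with Apoc3 not searched, and a match or its absence says nothing here about a factor's binding.

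The arrays resembled each other closely. Array medians lay between 5.91 and 5.96, and the correlation of array pairs over all probe sets was 0.9917 to 0.9956 within groups and 0.9897 to 0.9954 between groups. Wild-type control replicate 2 stood apart, at 25.57 on the first principal component (19.69% of the variance), with the other 11 arrays between -10.56 and 10.80. Of the 8 measured ileal markers, 6 lay at 8.27 or above on every array, among them the bile acid binding protein Fabp6 at 12.05 to 12.76. The other ileal markers varied widely: the bile acid transporter Slc10a2 read 5.22 to 7.52 and the hormone gene Fgf15 5.31 to 8.88, against a median of 5.93 over the means of all tested probe sets. Of the 11 measured liver markers, 6 had values below that median, among them Alb at 5.50 to 5.91, Fga at 3.63 to 4.04 and Fgb at 3.76 to 4.15. The other 5 lay above it on every array: Cps1 at 9.43 to 10.08, Serpina1b at 6.21 to 8.15, Ttr at 6.54 to 6.93, Tat at 6.48 to 7.08 and Apoh at 5.97 to 6.38. Levels of different probe sets are not on 1 scale, so these values do not rank the genes.

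None of the 11 probe sets of the 6 genes passed the adjusted threshold of 0.05 in any of 7 contrasts (limma, Benjamini-Hochberg over all 22626 probe sets). The lowest adjusted p among them was 0.747 for quercetin in POR-null mice, 0.392 for quercetin in wild type, 0.721 for genotype on quercetin and 0.330 for genotype on control diet. It was 0.413 for the interaction, 0.850 for the average quercetin effect and 0.531 for the average genotype effect. The background gives little to read this against: of all probe sets, 0.00442% were called for quercetin in wild type (1 probe set) and 0% in each of the other contrasts. At an unadjusted p under 0.05, 0, 1, 0, 5, 5, 0 and 2 of the 11 probe sets lay below it in the 7 contrasts in the order above. The shares of all probe sets below it were 6.65%, 10.9%, 7.01%, 10.1%, 10.3%, 7.44% and 7.12%.

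Apob encodes the protein without which no chylomicron is formed. Its level was 10.86, 11.27 and 9.94 in POR-null mice on quercetin and 10.67, 10.36 and 10.47 in POR-null mice on control diet. It was 10.40, 10.84 and 10.40 in wild type on quercetin, against 11.29, 11.03 and 11.13 in wild type on control. All 3 wild-type control arrays thus lay above the POR-null control and wild-type quercetin arrays, while the POR-null quercetin arrays spanned nearly the whole range of the gene. The wild-type quercetin minus control difference was -0.60 ± 0.24 (log2, SE; 0.658-fold; limma adjusted p = 0.392). The POR-null minus wild-type difference on control diet was -0.65 ± 0.24 (0.637-fold; limma adjusted p = 0.407). These differences share the wild-type control arrays. Neither passed.

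Mttp was the member with the smallest differences apart from Apoa1. Its leading probe set read 11.59, 11.41 and 11.50 in POR-null mice on quercetin and 11.43, 11.44 and 11.26 in POR-null mice on control. In wild type it read 11.72, 11.13 and 11.58 on quercetin and 11.45, 11.80 and 11.43 on control, so the groups overlapped in each of the 4 comparisons of a genotype or diet. Genotype on control diet differed by -0.18 ± 0.14 (log2, SE; 95% interval -0.48 to 0.11; limma adjusted p = 0.664). The other probe set, 1419400_at, differed by -0.25 ± 0.11 there and by -0.22 ± 0.11 on quercetin (limma adjusted p = 0.479 and 0.721). Averaged over both diets its genotype difference was -0.24 ± 0.08 (limma adjusted p = 0.531), against -0.08 ± 0.10 for the leading one. The pair of probe sets correlated over the 12 arrays with r = 0.64.

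Apoa4 read 12.23, 12.19 and 12.39 in POR-null mice on quercetin and 11.90, 11.97 and 11.66 in POR-null mice on control, without overlap. In wild type it read 12.43, 11.55 and 11.92 on quercetin and 12.10, 12.85 and 12.26 on control, with overlap and the opposite order of means. Quercetin minus control was 0.43 ± 0.20 in POR-null mice (1.34-fold; limma adjusted p = 0.747) and -0.44 ± 0.20 in wild type (0.739-fold; limma adjusted p = 0.458). On control diet all 3 POR-null arrays lay below all 3 wild-type arrays, with a difference of -0.56 ± 0.20 (limma adjusted p = 0.391). The other Apoa4 probe set, 1417761_at, followed the leading one over the arrays (r = 0.965), and its differences in these contrasts were 0.43 ± 0.28, -0.55 ± 0.28 and -0.64 ± 0.28. On control diet its genotypes overlapped, with POR-null replicate 2 at 11.54 above wild-type replicate 1 at 11.42.

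Apoc2, which encodes the lipase activator, had the widest spread of the 6 genes. It read 10.32, 9.76 and 10.61 in POR-null mice on quercetin and 9.57, 10.08 and 8.94 in POR-null mice on control. In wild type it read 10.26, 8.99 and 9.58 on quercetin and 9.79, 10.75 and 9.85 on control. The groups overlapped in all 4 of these comparisons. The quercetin difference was 0.70 ± 0.35 in POR-null mice and -0.52 ± 0.35 in wild type, and the genotype difference was 0.62 ± 0.35 on quercetin and -0.60 ± 0.35 on control (log2, SE). None of these passed (limma adjusted p from 0.574 to 0.756).

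Apoc3, which encodes the lipase inhibitor, gave the smallest p of the members in the genotype comparison on control diet. It read 10.49, 10.11 and 10.34 in POR-null mice on quercetin and 10.01, 10.22 and 9.85 in POR-null mice on control. In wild type it read 10.89, 9.96 and 10.35 on quercetin and 10.58, 11.36 and 10.58 on control. On control diet the POR-null arrays all lay below the wild-type arrays, by -0.81 ± 0.23 (log2, SE; 0.569-fold; 95% interval -1.30 to -0.33; limma adjusted p = 0.330). By p it stood at rank 213 of 22626 in that contrast and did not pass. On quercetin the genotypes overlapped and differed by -0.09 ± 0.23 (limma adjusted p = 0.961).

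Apoa1 was the brightest signal of the arrays: the highest value in the whole table, 14.04, is its leading probe set in POR-null quercetin replicate 1. It read 14.04, 13.86 and 13.87 in POR-null mice on quercetin and 13.80, 13.92 and 13.80 in POR-null mice on control. In wild type it read 13.99, 13.78 and 13.72 on quercetin and 13.77, 13.77 and 13.84 on control. The groups overlapped in the 4 comparisons of a genotype or diet, and their differences lay between 0.04 and 0.09 with an SE of 0.08. The standard deviation over the 12 arrays was 0.10, the 30.2 percentile of all probe sets, whereas those of Apoa4, Apob, Apoc2 and Apoc3 lay at the 98.5 to 99.6 percentile and Mttp at 87.9. The other Apoa1 probe sets varied still less, and they correlated with the leading one with r between -0.11 and 0.59. Whether signals this bright can still follow a change in RNA was not tested.

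**Figure D1:**
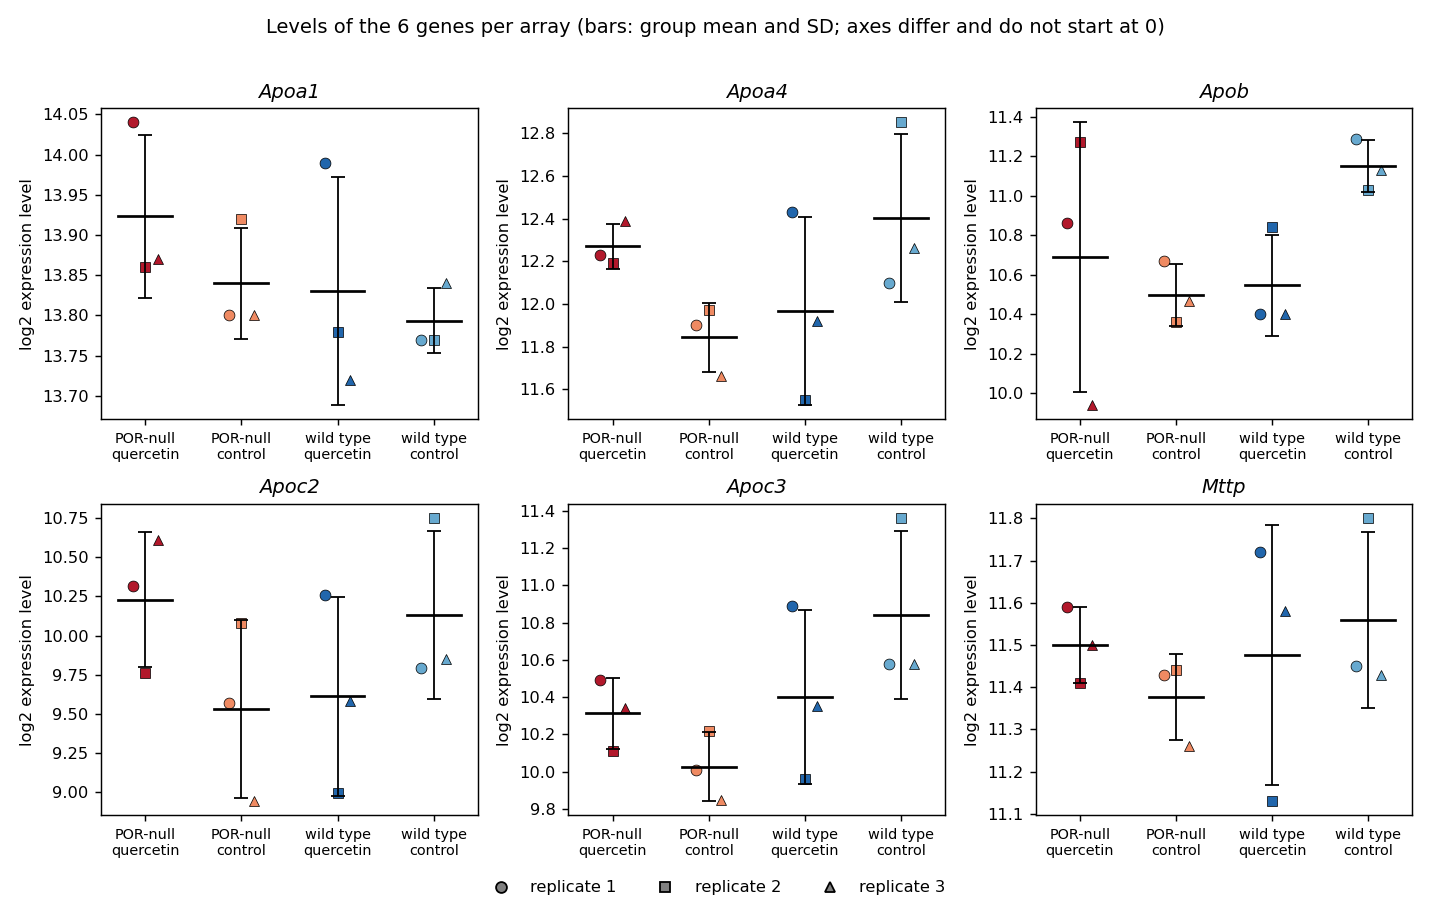
Log2 expression level (y axis, a separate range for each gene, not starting at 0) of the leading probe set of each gene on the 12 arrays, by group; points are arrays with the shape giving the replicate, and bars give the group mean and SD (n = 3). The wild-type control arrays of Apob, at 11.03 to 11.29, lie above the POR-null control arrays, at 10.36 to 10.67, while the Apoa1 axis covers only 13.72 to 14.04.

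By the leading probe sets, the order of the group means was the same for Apoa4, Apob and Mttp: highest in wild type on control, then POR-null on quercetin, then wild type on quercetin, and lowest in POR-null on control. For Apoc2 POR-null on quercetin came above wild type on control, and the rest of the order was the same. For Apoc3 wild type on control was followed by wild type on quercetin, POR-null on quercetin and POR-null on control. Apoa1 was highest in POR-null on quercetin and lowest in wild type on control. Other probe sets gave other orders: the remaining 3 of Apoa1 were lowest in POR-null on control, and Mttp 1419400_at was lowest in POR-null on quercetin, at 10.72, against 11.03 in wild type on control. Most neighbours in these orders lay closer together than the SD within groups. The exceptions were the step below wild type on control for Apob (0.46, against a pooled SD of 0.38) and for Apoc3 (0.44, against 0.35). The level is the only quantity compared in these orders, and always within a gene.

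The genotype comparison on control diet had 3 of 6 leading probe sets without overlap between groups, all lower in POR-null (Apoa4, Apob and Apoc3), where 8.71% of all probe sets were lower without overlap. The groups of the other Apoa4 probe set overlapped there. The median difference of the 6 was -0.58, against -0.02 over all tested probe sets. For quercetin in wild type the median was -0.44 against -0.02, with 1 of 6 lower without overlap (Apob; 8.08% of all probe sets). For quercetin in POR-null mice the median was 0.24 against 0.01, with 1 of 6 higher without overlap (Apoa4; 7.45% of all). For genotype on quercetin the median was 0.12 against 0.01, and the groups of all 6 leading probe sets overlapped (12.3% of all probe sets did not overlap). These comparisons share groups pair by pair, so their medians are not separate observations. Apoa4, Apoc2, Apoc3 and Mttp also varied together over the arrays, so counts of the 6 genes are not counts of separate observations.

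The interaction, the quercetin effect in POR-null mice minus that in wild type, was positive for all 11 probe sets, with a median of 0.76 over the 6 leading ones against 0.03 over all probe sets. It was 0.86 ± 0.29 for Apoa4, 0.79 ± 0.34 for Apob, 1.22 ± 0.49 for Apoc2 and 0.73 ± 0.32 for Apoc3 (log2, SE). It was 0.21 ± 0.19 for Mttp and 0.05 ± 0.12 for Apoa1. The unadjusted p of the 4 larger ones ran from 0.00978 to 0.0404, and none passed (limma adjusted p from 0.413 to 0.472). A higher interaction at an unadjusted p under 0.05 was found for 6.07% of all probe sets. Whatever its p, the interaction was positive for 12896 of all 22626 probe sets. The 11 probe sets come from 6 genes, so their shared sign is not 11 separate observations. Nor is it 6, since Apoa4, Apoc2, Apoc3 and Mttp varied together over the arrays (r = 0.76 to 0.91).

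**Figure D2:**
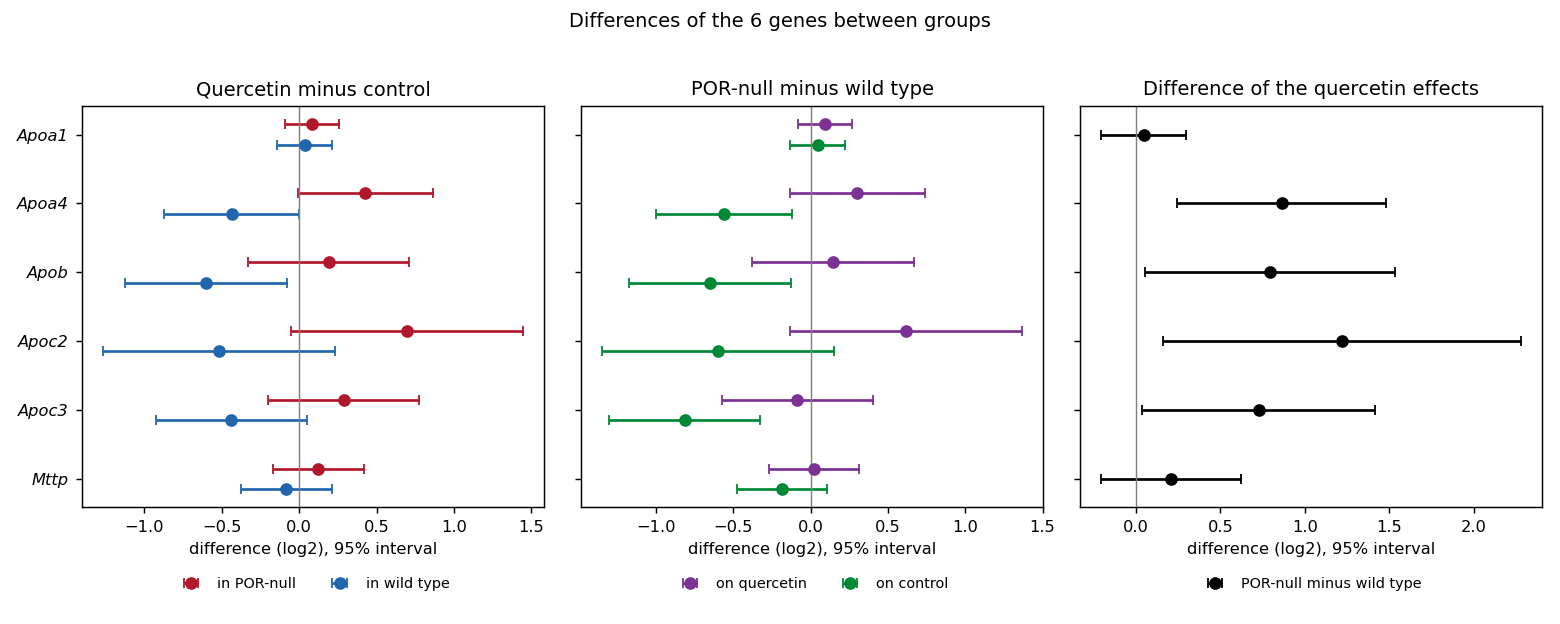
Differences of the leading probe sets (x axis, log2, points with 95% intervals from the limma fit; genes down the page): quercetin minus control in POR-null and wild type, POR-null minus wild type on quercetin and on control, and the difference of the quercetin effects. The Apoc3 interval on control diet runs from -1.30 to -0.33, and the Apoa1 intervals stay within 0.30 of 0; no difference passed the adjusted threshold.

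Wild-type control replicate 2, the array that stood apart, was the highest of the 12 for Apoa4, Apoc2, Apoc3 and Mttp, with both probe sets of Apoa4 and Mttp. Without it the genotype difference on control diet was -0.34 for Apoa4, -0.71 for Apob, -0.29 for Apoc2, -0.55 for Apoc3 and -0.06 for Mttp. The quercetin difference in wild type without it was -0.21 for Apoa4, -0.66 for Apob, -0.21 for Apoc2 and -0.18 for Apoc3, and 0.04 for Mttp. The interaction was then 0.64, 0.85, 0.91, 0.47 and 0.09 for Apoa4, Apob, Apoc2, Apoc3 and Mttp. The differences of Apob were as large without this array, and those of the other genes were smaller. Single arrays of other groups moved the values as well. The Apoc2 quercetin difference in POR-null mice was 0.41 without POR-null control replicate 3, and its genotype difference on control diet was then -0.31. Without wild-type quercetin replicate 2 the genotype difference on quercetin was 0.31 for Apoc2 and 0.10 for Apoa4, and the quercetin difference in wild type was -0.21 for Apoc2, -0.23 for Apoa4 and -0.22 for Apoc3. Without wild-type quercetin replicate 1 these quercetin differences were -0.85, -0.67 and -0.69, and the genotype differences on quercetin were 0.95 for Apoc2 and 0.54 for Apoa4. The Apob interaction was 0.50 without POR-null quercetin replicate 2, and its quercetin difference in POR-null mice lay between -0.10 and 0.57. The Mttp interaction was 0.03 without wild-type quercetin replicate 2 and 0.33 without replicate 1.

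Apoa4, Apoc2, Apoc3 and Mttp varied together from array to array. Over the 12 arrays the 6 correlations among these 4 genes ran from r = 0.76 (Apoc2 with Apoc3; Spearman's rho = 0.75) to r = 0.91 (Apoa4 with Apoc2; rho = 0.90). All 6 passed after adjustment over the 15 pairs of the 6 genes (100000 permutations, two-sided; Pearson adjusted p from 0.00015 to 0.0088, Spearman adjusted p from 0.00375 to 0.0174). The raw p of Apoa4 with Apoc2, 1e-05, is the smallest that the permutations can give. Without the 2 arrays farthest from the median of the first gene of a pair, r ran from 0.57 to 0.86, and without wild-type control replicate 2 from 0.68 to 0.90. Taken as deviations from the group means, so that genotype and diet play no part, the 6 values were 0.86 to 0.95.

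Apob showed no such correlation. Its r with the other 5 genes ran from -0.18 to 0.20, and as deviations from group means from -0.59 to -0.06. Apoa1 had r from -0.18 to 0.44 with the other 5, and none of the 9 pairs with Apob or Apoa1 passed (permutation test, Pearson adjusted p from 0.313 to 0.839). For Apoa1 this rested in part on 1 array: without wild-type control replicate 2 its r was 0.59 with Apoa4, 0.67 with Apoc2, 0.46 with Apoc3 and 0.52 with Mttp. As deviations from group means these ran from 0.39 to 0.53. Only the leading Apoa1 probe set entered these correlations. In wild-type control replicate 2 it read 13.77, below its mean of 13.85. The others lay above their means there: 1419232_a_at at 13.73 (mean 13.66), 1438840_x_at at 13.82 (13.75) and 1455201_x_at at 13.86 (13.84). The Apoa1 correlations therefore describe that probe set alone. POR-null quercetin replicate 3 shows the difference between the genes plainly: Apoc2 stood at 10.61 there, second only to wild-type control replicate 2, while Apob had its lowest value, 9.94.

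**Figure D3:**
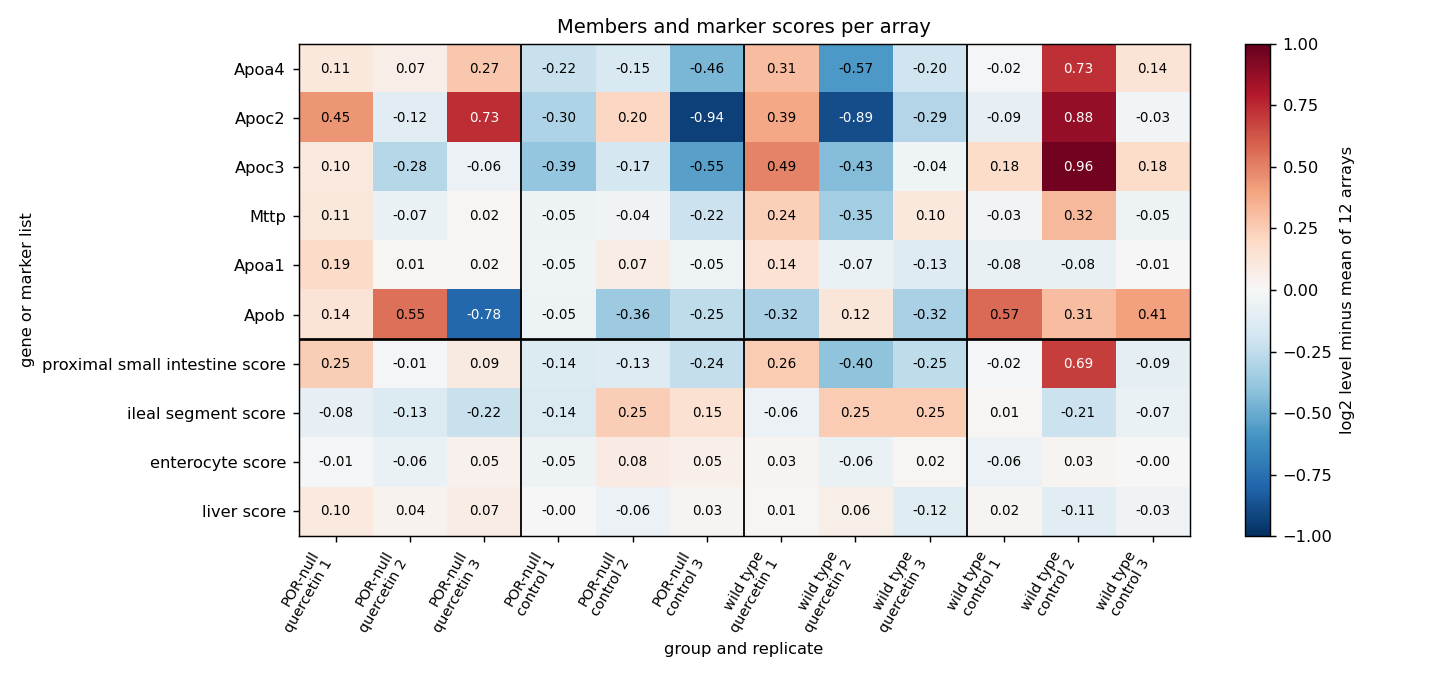
Levels of the 6 genes and scores of 4 marker lists on each array (columns, grouped by genotype and diet; rows, genes above and marker lists below the line), as log2 level minus the mean of the 12 arrays, with colour from -1 to 1. In wild-type control replicate 2, Apoa4, Apoc2, Apoc3 and the proximal small intestine score are raised by 0.69 to 0.96, Mttp by 0.32 and Apob by 0.31. The leading probe set of Apoa1 stands at -0.08 there, and its other probe sets lie above their means.

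The 4 genes also moved with markers of the proximal small intestine, scored as the mean of 13 measured genes after centring each. That score ran from -0.01 to 0.25 in POR-null mice on quercetin and from -0.24 to -0.13 in POR-null mice on control. It ran from -0.40 to 0.26 in wild type on quercetin and from -0.09 to 0.69 in wild type on control, where replicate 2 gave 0.69 and held the highest value of 8 of the 13 markers. Other markers of the list went the other way. Slc11a2 (6.97) and Sct (8.55) had their lowest values on that array, and Slc40a1 stood at 7.06 in a range of 6.78 to 8.52. Dcxr had its highest value, 8.57, in wild-type quercetin replicate 2, the array with the lowest score. The correlation of the score over the 12 arrays was r = 0.93 with Apoa4 (rho = 0.92), 0.85 with Apoc2 (rho = 0.87), 0.87 with Apoc3 (rho = 0.73) and 0.85 with Mttp (rho = 0.72). The Pearson permutation p adjusted over the 54 relations of 9 marker lists with 6 genes ran from 0.00108 to 0.0085. The lists were chosen with earlier results of these data known, which these p-values do not take into account. The Spearman values passed for Apoa4 and Apoc2 (permutation test, adjusted p = 0.0054 and 0.0154) and not for Apoc3 and Mttp (0.123 each). Without the 2 arrays of most extreme score r ran from 0.66 to 0.83, without wild-type control replicate 2 from 0.72 to 0.88, and as deviations from group means from 0.80 to 0.96.

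With Apob the proximal score had r = 0.14 and with Apoa1 r = 0.33. Without wild-type control replicate 2 the Apoa1 value was 0.81 and the Apob value -0.05. The score of 8 ileal markers ran the other way for Apoa4, with r = -0.75 (permutation test, adjusted p = 0.0409; rho = -0.65, adjusted p = 0.180), and no other gene passed with it. The part that the length or position of the scraped segment has in these results was not tested. The differences of the proximal list resembled those of the members in direction: its median difference was 0.31 for quercetin in POR-null mice, -0.20 for quercetin in wild type and -0.37 for genotype on control diet, and none of its 13 genes passed (limma; lowest adjusted p = 0.269 in these 3 contrasts). Its median interaction was 0.55, with 9 genes higher and 4 lower. In either direction 7 of the 13 had an unadjusted limma p under 0.05, against 10.3% of all probe sets. None passed there (lowest limma adjusted p = 0.351). The positive interaction was thus not particular to the members.

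**Figure D4:**
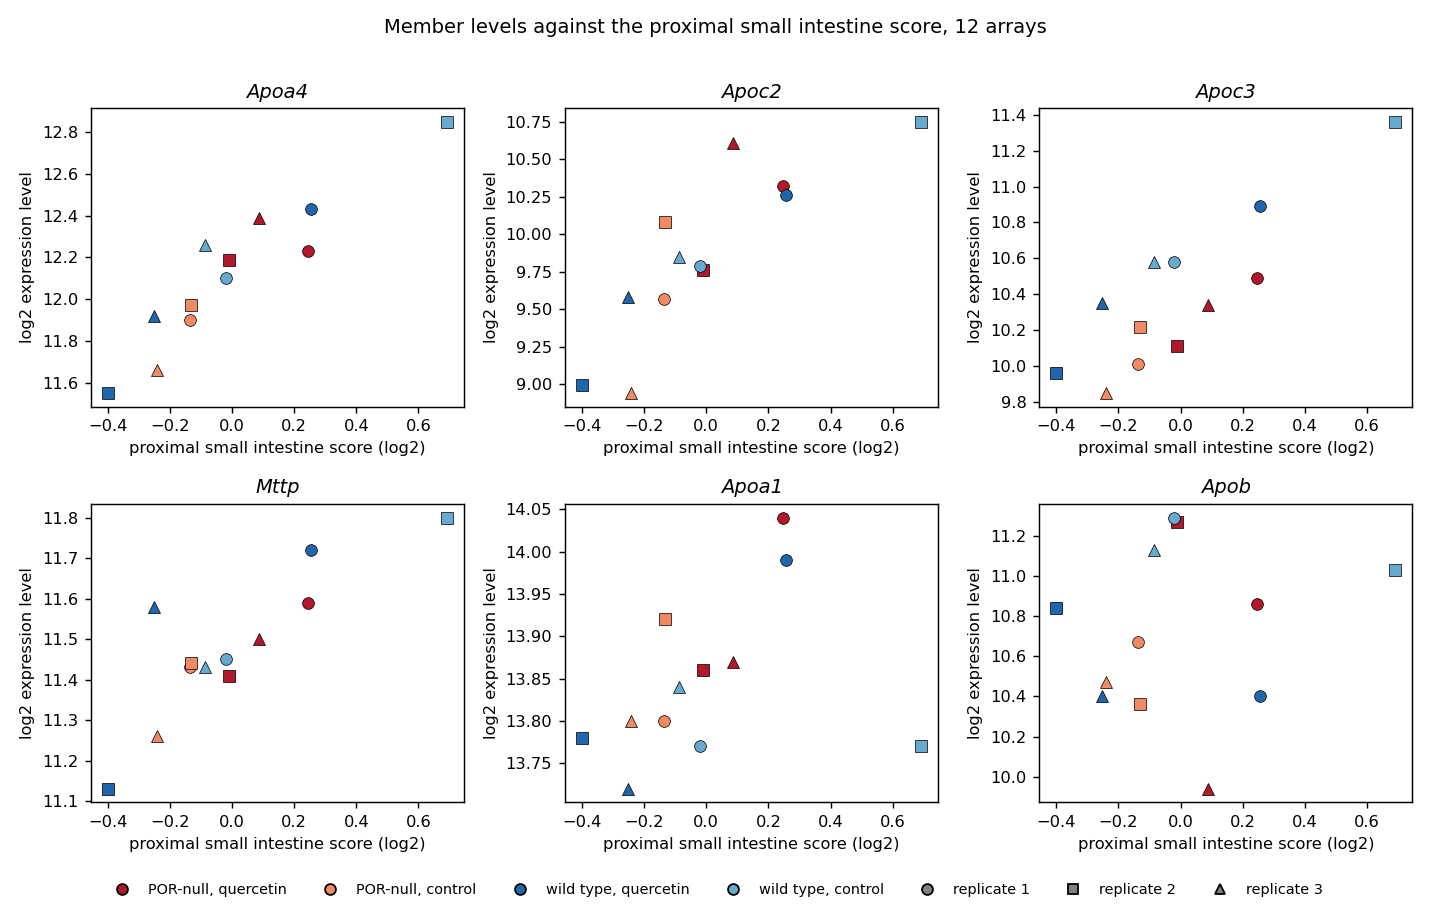
Log2 level of each gene's leading probe set (y axis, separate ranges) against the proximal small intestine score (x axis, log2 units) on the 12 arrays; colour gives the group and shape the replicate. Apoa4 climbs with the score (r = 0.93) from 11.55 to 12.85, and Apob shows no such slope (r = 0.14).

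Other cell types were scored in the same way. All 13 smooth muscle and stroma markers had higher means in POR-null than in wild type on both diets, and none passed (limma; 5 of 13 on control and 2 of 13 on quercetin at an unadjusted p under 0.05). Of all 22626 probe sets, 9820 on control and 12416 on quercetin were higher in POR-null, and 10.1% and 7.01% lay under that p in either direction. The markers are not 13 separate observations: in POR-null control replicates 1, 2 and 3 Myl9 read 8.43, 5.64 and 7.64 and Tagln 7.85, 6.05 and 7.55. The smooth muscle and stroma score was 0.12 to 0.56 in POR-null mice on quercetin against -0.58 to 0.33 in wild type on quercetin. On control it was -0.49 to 0.88 in POR-null mice against -0.65 to -0.20 in wild type. It correlated with Apoc3 at r = -0.58 (permutation test, adjusted p = 0.257) and with Apob at r = 0.05. The 7 enterocyte markers had scores between -0.06 and 0.08 on all arrays, and Apob had r = -0.70 with them (permutation test, adjusted p = 0.116). The other genes had r from 0.19 to 0.34 with this score. As deviations from group means r was 0.51 to 0.62 for Apoa4, Apoc2, Apoc3 and Mttp, 0.30 for Apoa1 and -0.78 for Apob. The score of 6 B and plasma cell markers was 0.19 to 0.49 in wild type on quercetin against -0.48 to 0.10 in wild type on control, with r = -0.61 to Apob (permutation test, adjusted p = 0.227). All 7 cell cycle markers were higher for quercetin in wild type, with a median difference of 0.31, 4 of them at an unadjusted p under 0.05, and none passed (limma; lowest adjusted p = 0.278). Of all 22626 probe sets 9466 were higher in that contrast, and 10.9% lay under that unadjusted p in either direction. The cell cycle score was 0.07 to 0.28 in wild type on quercetin against -0.48 to 0.01 in wild type on control, with the lowest value, -0.48, in replicate 2. It correlated with the 6 genes with r from -0.47 to -0.07, and none passed (permutation test, adjusted p from 0.454 to 0.904). Without wild-type control replicate 2 r was 0.14 for Apoa4, 0.11 for Apoc2, 0.10 for Apoc3 and 0.24 for Mttp. It was then -0.39 for Apoa1 and -0.29 for Apob. The part of these cells in the results was not tested.

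Of the enzymes and carriers that serve the particle, 21 of 22 listed genes of assembly and secretion were measured and none passed in any contrast. On control diet 16 of the 21 were lower in POR-null than in wild type, with a median of -0.07, and for quercetin in wild type 15 were lower, with a median of -0.07. By the leading probe sets of all 12393 genes, 6942 and 6986 were lower in these comparisons, with a median of -0.02 in each. Apobec1, the enzyme that edits the Apob transcript so that enterocytes make its short form, differed by -0.36 ± 0.10 in each of these comparisons, which share the wild-type control arrays (limma adjusted p = 0.337 for genotype and 0.282 for quercetin). Its interaction was 0.44 ± 0.15 (limma adjusted p = 0.413). Mogat2 and Dgat2, acyltransferases that rebuild triglyceride, differed by -0.13 ± 0.05 and -0.22 ± 0.09 between the genotypes averaged over both diets (limma adjusted p = 0.567 and 0.670). Plin2, a lipid droplet coat protein, differed by -0.22 ± 0.07 between quercetin and control averaged over the genotypes (limma adjusted p = 0.577). Sec13, a coat protein of the vesicles that leave the endoplasmic reticulum, differed by 0.11 ± 0.06.

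All 11 other apolipoprotein genes listed were measured and none passed. Apoe, a receptor ligand that macrophages and other cells also make, and Clu, which encodes clusterin, had interactions of the opposite sign to those of the members, and neither passed. The interaction was -0.86 ± 0.23 for Apoe and -0.75 ± 0.18 for Clu (limma adjusted p = 0.351 and 0.342). Quercetin minus control was -0.10 ± 0.16 for Apoe in POR-null mice and 0.76 ± 0.16 in wild type; the wild-type value had an adjusted p of 0.229 by limma. For Clu it was -0.19 ± 0.13 in POR-null mice and 0.56 ± 0.13 in wild type. Apoc4, the chromosomal neighbour of Apoc2, differed by 0.06 to 0.14 in the 4 comparisons of a genotype or diet. Over the 11 genes the median interaction was 0.16, with 8 higher and 3 lower. By the leading probe sets of all 12393 genes, 7099 were higher.

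Of 17 listed transcription factors of apolipoprotein genes 15 were measured, and none passed. Creb3l3, an endoplasmic reticulum-anchored factor that in mouse activates apolipoprotein genes, among them Apoa4 and Apoc2, differed by -0.27 ± 0.08 between POR-null and wild type averaged over both diets (limma adjusted p = 0.428), and by -0.39 ± 0.11 on control diet alone. Nr1h4, the bile acid receptor FXR, differed by 0.58 ± 0.12 between POR-null and wild type on control diet (limma adjusted p = 0.224) and by -0.06 ± 0.12 on quercetin. Nr5a2, a nuclear receptor of bile acid and cholesterol genes, differed by -0.13 ± 0.09 for quercetin in POR-null mice and by 0.41 ± 0.09 in wild type (limma adjusted p = 0.833 and 0.229). The median over the 15 factors lay between -0.035 and 0.017 in all 7 contrasts.

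Of 18 listed lipoprotein receptors and lipases 13 were measured, and none passed. Sort1, which encodes the sorting receptor sortilin, differed by -0.36 ± 0.08 for quercetin in POR-null mice and by 0.14 ± 0.08 in wild type (limma adjusted p = 0.415 and 0.553). Its interaction of -0.50 ± 0.11 had a limma adjusted p of 0.307. Angptl4, an inhibitor of lipoprotein lipase, differed by 0.29 ± 0.22 between the genotypes averaged over the diets, and Lpl, the lipase itself, by 0.25 ± 0.19.

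The genes whose pattern over the 12 arrays was most like the mean of the 6 members were ranked by Pearson's r among 7304 genes with a mean level above 5.93. At the top were Vdac2, a channel of the outer mitochondrial membrane (r = 0.93), Sco2, a copper chaperone of cytochrome oxidase (r = 0.92), Rell2 (r = 0.92), Slc23a1, an ascorbate transporter (r = 0.91), Hrh3 (r = 0.90), Il1f9 (r = 0.90), Tmem219 (r = 0.90), Csf1 (r = 0.88), Ceacam2 (r = 0.88) and Mdh1, cytosolic malate dehydrogenase (r = 0.87). Without wild-type control replicate 2 the 10 values ran from 0.79 to 0.92. The nearest genes to single members were Vdac2, Slc23a1 and Plpp1 for Apoa4, and Pnliprp2, Acy1 and Vdac2 for Apoc2. For Apoc3 they were Mdh2, Acot12 and Hsd17b6, and for Mttp they were Vdac2, Sec24d and Ufsp2. Those of Apob, Klf3, Aym1 and Cilp2 (r = 0.87 to 0.90), and those of Apoa1, Nsf, Rtbdn and Mea1 (r = 0.86 to 0.91), were other genes. These r were picked as the highest of 7304 and share the arrays, so they are a description of likeness.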

How the data were processed

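Ileal RNA of 12 mouse pools was measured on Affymetrix 430A arrays. The deposited values are log2 levels of probe sets, 1 column per array, between 2.66 and 14.04; MAS5 and RMA appear in the submitters' processing notes, without a role or version. The values were used as deposited. Of 22690 rows 64 array controls were left out; of the rest 20380 carried 1 symbol, 691 several and 1555 none. Gene IDs linked 20351 of the 20380 to the GRCm38.p6 gene table.

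Group means were estimated from the 12 arrays together (R 4.3.3, limma 3.58.1, lmFit with eBayes; degrees of freedom 8 residual, 5.59 prior; median SE of a pairwise difference 0.0886), with 7 contrasts and Benjamini-Hochberg adjustment over 22626 probe sets (threshold 0.05, two-sided). The step was tested on simulated data. The number of arrays limits the precision. Correlations across arrays used 100000 permutations of the 12 arrays, made without regard to group (scipy 1.17.1). A gene with several probe sets is led by the brightest.

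The members and lists were chosen with earlier results of these data known. All members are named; of each other list, up to 4 genes with the smallest p in the average genotype or average quercetin contrast, and the genes most like the members by the rank given. Where the labels do not say that pools are separate experiments, p-values measure only the spread between these pools. Alternatives were quantile normalization, median centring, leaving out dim probe sets, leaving out each array, a trended robust eBayes, array weights, a replicate block, a fit of the compared arrays alone, and the average of a gene's probe sets. No batch is given in the labels.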

Additional observations from a re-analysis of the deposited data

How the results depend on the processing

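No probe set of the 6 genes passed under any alternative. Of 819 recomputed values of 42 single results, 797 kept their direction and 22 changed sign; the lowest adjusted p was 0.153 (Apoc3, genotype on control diet, without wild-type control replicate 1). Sign changes with all arrays were few: Mttp genotype on quercetin was -0.0033 with median centring and -0.10 as the mean of its probe sets, Mttp 1419400_at interaction -0.013 with median centring, and Apoa1 genotype on control -0.0083 as the mean of its probe sets. Leaving out each array in turn changed signs in these ranges: Apoa1 quercetin in wild type -0.043 to 0.092 and interaction -0.012 to 0.13; Apob quercetin in POR-null -0.10 to 0.57 and genotype on quercetin -0.15 to 0.52; Apoc3 genotype on quercetin -0.31 to 0.16; Mttp quercetin in wild type -0.21 to 0.09 and genotype on quercetin -0.15 to 0.15. For Mttp 1419400_at they were -0.14 to 0.033 for quercetin in POR-null, -0.16 to 0.023 in wild type and -0.077 to 0.11 for the interaction. Counts of all probe sets called moved when an array was left out, with the variance model and with centring. For quercetin in wild type (1 as reported) they were 7 with trend and robust, 2 with only the arrays compared, 0 as gene means and 1 to 59 leaving out an array (59 without wild-type control replicate 1). For genotype on quercetin (0) they were 5, 2 with only the arrays compared, and 0 to 1. For genotype on control (0) they were 1 with trend and robust and 0 to 15, and for the interaction (0) 2 and 0 to 9, with the highest again without wild-type control replicate 1. For average quercetin (0) they were 2 with median centring, 1 with trend and robust, 1 with array weights and 0 to 1, and for average genotype (0) 4 with trend and robust, 4 with array weights and 0 to 6. The cause was not tested.

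Whether the replicate numbers mark pairs of arrays was not tested. Same-numbered deviations correlated at -0.179 to 0.162, and 5 of 12 arrays correlated best with their own number. These values come without a test and cannot decide it. With the replicate block the counts were 5 for quercetin in wild type, 2 for genotype on quercetin, 3 for the interaction and 2 for average genotype, and no other count of calls moved.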
